A study of Caenorhabditis elegans with 20 samples.

Results

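The genes described here are 7 genes of the hypoxia and hydrogen sulfide response of Caenorhabditis elegans, hif-1, egl-9, vhl-1, rhy-1, cysl-1, cysl-2 and sqrd-1. They were chosen by name as the core of the HIF-1 pathway and its sulfide branch, and all 7 were found by their WormBase identifiers among the 46904 genes of the deposited count table. The study compared WT and ns889 animals grown with or without the mold Penicillium brevicompactum on the plates, which gave 4 groups of 3 replicates. All 4 groups grew at 20 C with Escherichia coli OP50 as food on NGM plates, for about 48 hours after L1 arrest, and polyadenylated RNA of whole young adults was sequenced. The labels name neither the gene that the ns889 allele affects nor any other allele in either strain, and they do not say that replicates came from separate cultures. The p-values therefore measure the spread between these samples, part of which may be technical.

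HIF-1 is the transcription factor of the hypoxia response. When oxygen is present, the prolyl hydroxylase EGL-9 modifies the HIF-1 protein, and VHL-1, the substrate receptor of a cullin ubiquitin ligase, marks it for breakdown, so the pathway is set mainly at the level of the protein and is read from its target transcripts. RHY-1, an acyltransferase-like protein of the endoplasmic reticulum membrane, and CYSL-1, a cysteine synthase-like protein that binds EGL-9, carry a hydrogen sulfide signal to the pathway: RHY-1 holds CYSL-1 back, and CYSL-1 inhibits EGL-9. CYSL-2, a cyanoalanine synthase, and SQRD-1, the mitochondrial sulfide:quinone oxidoreductase, act in the breakdown of cyanide and sulfide. Transcripts of cysl-2, sqrd-1, rhy-1 and egl-9 itself are known to rise when HIF-1 is active, which makes egl-9 and rhy-1 feedback brakes as well as targets.

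Replicates held 95998037 to 115940062 counts. Levels are given as CPM, the share of a library's counts on a per-million scale, scaled between libraries by the trimmed mean of M-values, with the mean ± SD of 3 replicates. A gene with no count would lie under 0.0259 to 0.0313 CPM, depending on the library, if 3 counts are taken as the limit that a count of 0 allows; this floor covers counting error only. The 7 genes had 234 to 24279 counts in each library and all passed the filter on low counts, together with 16980 genes in all. Listed markers of intestine, epidermis, body wall muscle, neurons, sperm, oocytes and germ line were all detected in every library of these whole animals. Replicate 1 of WT without mold and replicate 3 of WT with mold lay farthest from the other replicates of their groups, with a root mean square log2 difference over all genes tested of 0.641 and 0.620, against 0.377 to 0.568 for the others. In whole animals, fewer cells of a type and less RNA per cell cannot be told apart.

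Per kilobase of counted exon, hif-1 was the most abundant of the 7 transcripts. Its level over the 12 libraries was 73.1 ± 3.27 CPM per kilobase (SD, n = 12, all groups pooled), above 90.6% of the genes tested, whose median was 6.55. The order below it was cysl-1 with 23.3 ± 2.16, egl-9 with 13.8 ± 1.92, cysl-2 with 12.3 ± 2.21 and rhy-1 with 8.37 ± 1.74 CPM per kilobase. vhl-1 with 3.99 ± 0.490 and sqrd-1 with 2.50 ± 0.752 CPM per kilobase were the lowest, at percentiles 42.2 and 35.3 of the genes tested. The ranges over libraries overlapped for 3 neighbouring pairs in this order, egl-9 with cysl-2, cysl-2 with rhy-1, and vhl-1 with sqrd-1. The ranges of the other neighbours did not overlap. These ranges pool the libraries and do not compare genes within a library. Within each library cysl-2 lay above rhy-1 per kilobase, while the order of egl-9 with cysl-2 and of vhl-1 with sqrd-1 changed between libraries.

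The 7 genes differed in how much they varied. The SD of log2 CPM over the 12 libraries was 0.064 for hif-1, at percentile 1.21 of the genes tested, and 0.14 for cysl-1. sqrd-1 had the widest spread of the 7, with an SD of 0.43 at percentile 69.7. rhy-1 and cysl-2, with 0.27 and 0.26, lay close to the median gene's 0.26, and egl-9 and vhl-1 lay under it with 0.21 and 0.18.

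**Figure D1:**
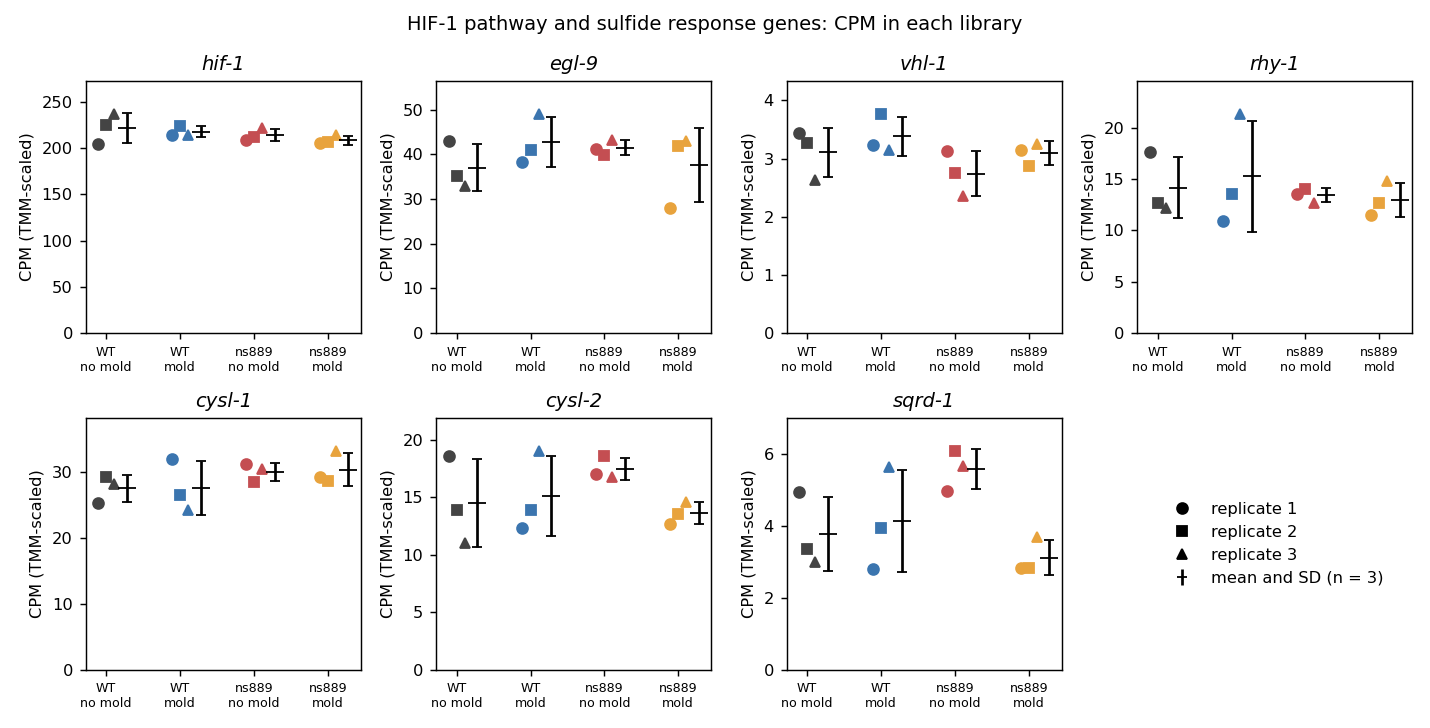
Level of each of the 7 genes in every library, in CPM on a separate linear axis per gene; points are replicates of the 4 groups and bars give the mean and SD of 3. hif-1 lies between 205 and 237 CPM in all 12 libraries, while sqrd-1 in ns889 lies between 4.99 and 6.10 CPM without mold and between 2.83 and 3.69 CPM with mold.

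hif-1 (WBGene00001851), the transcription factor gene, lies on chromosome V from 20780413 to 20785259 on the plus strand in WBcel235, the build of all positions given here, with 11 exons. In WT its level was 205, 225 and 237 CPM without mold and 215, 225 and 215 CPM with mold, in the order of replicates 1 to 3. In ns889 it was 209, 212 and 222 CPM without mold and 206, 206 and 214 CPM with mold. All 12 values fell in one narrow band, and only the comparison of genotypes on mold had groups that did not overlap, with ns889 the lower. The log2 fold change with mold was -0.03 in WT (95% confidence interval -0.16 to 0.11) and -0.04 in ns889 (-0.17 to 0.10). On mold, ns889 differed from WT by -0.06 (-0.20 to 0.07), with an adjusted p of 0.535 in edgeR's quasi-likelihood test.

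egl-9 (WBGene00001178), the oxygen-sensing prolyl hydroxylase gene, has 11 exons on chromosome V from 10468411 to 10476952 on the plus strand. In WT its level was 42.9, 35.2 and 32.8 CPM without mold and 38.2, 40.9 and 49.0 CPM with mold. In ns889 the values were 41.2, 39.9 and 43.2 CPM without mold and 28.05, 41.8 and 43.1 CPM with mold. The groups overlapped in every comparison, and replicate 1 of ns889 with mold was the lowest of the 12 libraries. The log2 fold change with mold was 0.21 ± 0.16 (SE) in WT and -0.14 ± 0.16 in ns889, with adjusted p of 0.417 and 0.733 in the quasi-likelihood test.

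vhl-1 (WBGene00006922), which encodes the ubiquitin ligase's substrate receptor, is a short gene of 3 exons on chromosome X from 11307360 to 11308400 on the plus strand. Its level was 3.11 ± 0.421 CPM in WT without mold, 3.38 ± 0.339 CPM in WT with mold, 2.74 ± 0.386 CPM in ns889 without mold and 3.09 ± 0.200 CPM in ns889 with mold. The groups overlapped in every comparison made. Its 5 log2 values, 4 fold changes and the difference of the mold responses, ran from -0.18 to 0.17, and the lowest adjusted p was 0.637 in the quasi-likelihood test.

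rhy-1 (WBGene00012324), the acyltransferase-like brake, has 4 exons on chromosome II from 9161379 to 9163448 on the plus strand. In WT its level was 17.6, 12.7 and 12.2 CPM without mold and 10.9, 13.6 and 21.3 CPM with mold. In ns889 the values were 13.6, 14.1 and 12.7 CPM without mold and 11.5, 12.6 and 14.8 CPM with mold. Replicate 1 of WT without mold and replicate 3 of WT with mold, both of which stood apart over all genes, were the 2 highest libraries, and every pair of groups overlapped. The log2 fold change with mold was 0.11 ± 0.22 in WT and -0.05 ± 0.22 in ns889, with adjusted p of 0.783 and 0.94 in the quasi-likelihood test. The gene shares 81 of its 1668 exon bases with W07A12.8 on the other strand, and the strand setting of the authors' counting is not given in the sources used here.

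cysl-1 (WBGene00007653), which encodes the sulfide sensor that binds EGL-9, has 6 exons on chromosome X from 9952579 to 9954533 on the minus strand. Its level was 27.5 ± 2.07 CPM in WT without mold and 27.5 ± 4.02 CPM in WT with mold. In ns889 it was 30.0 ± 1.39 CPM without mold and 30.3 ± 2.51 CPM with mold. The groups overlapped in every comparison, and the log2 fold change with mold was 0.0024 ± 0.11 in WT and 0.02 ± 0.11 in ns889.

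cysl-2 (WBGene00010759), the cyanoalanine synthase gene, has 3 exons on chromosome II from 14492826 to 14494514 on the minus strand. In WT its level was 18.6, 13.9 and 11.04 CPM without mold and 12.3, 13.9 and 19.1 CPM with mold. In ns889 it was 17.03, 18.6 and 16.8 CPM without mold and 12.7, 13.6 and 14.6 CPM with mold. The WT groups spanned nearly the same range, whereas the ns889 groups did not overlap, those with mold being the lower. The log2 fold change with mold was 0.06 ± 0.19 in WT and -0.36 ± 0.19 in ns889, the latter with a 95% confidence interval of -0.77 to 0.05 and an adjusted p of 0.455 in the quasi-likelihood test. The gene shares 76 of its 1234 exon bases with vnut-1 on the other strand, a gene with 43667 counts over all libraries against 19046 for cysl-2.

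sqrd-1 (WBGene00008538), the sulfide:quinone oxidoreductase gene, has 8 exons on chromosome IV from 14219871 to 14224439 on the plus strand. In WT its level was 4.94, 3.37 and 3.00 CPM without mold and 2.81, 3.95 and 5.66 CPM with mold. In ns889 it was 4.99, 6.10 and 5.66 CPM without mold and 2.83, 2.84 and 3.69 CPM with mold. The 3 libraries of ns889 without mold lay above all libraries of WT without mold and above all of ns889 with mold, while the WT groups overlapped across most of their range.

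The first comparison asked which genes respond to the mold in WT. None of the 7 genes passed an adjusted p of 0.05 in edgeR's quasi-likelihood test, where 6.27% of the genes tested did. None had an unadjusted p under 0.05, against 24.6% of the genes tested, and none had groups without overlap, against 17.5%. The median log2 fold change of the 7 was 0.11, and that of all genes tested 0.0084. DESeq2 and limma-voom also called 0 of the 7. For sqrd-1 the log2 fold change was 0.13 ± 0.25, with an adjusted p of 0.764 in the quasi-likelihood test.

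In ns889, where 3.14% of the genes tested passed, again 0 of the 7 did. sqrd-1 came nearest, with a log2 fold change with mold of -0.84 ± 0.25, a 95% confidence interval of -1.39 to -0.29 and an adjusted p of 0.115 in the quasi-likelihood test. Its unadjusted p of 0.00585 was the only one of the 7 under 0.05, against 13.3% of the genes tested. sqrd-1 and cysl-2 were lower with mold without overlap, which makes 2 of 7, and 18.9% of the genes tested were lower in this way. The median log2 fold change of the 7 was -0.05, against -0.019 over all genes tested. DESeq2 called sqrd-1, with an adjusted p of 0.0339, and limma-voom called none. In a quasi-likelihood fit of the 6 ns889 libraries alone, which takes its spread from ns889 only, sqrd-1 passed with an adjusted p of 0.00803 and cysl-2 with 0.0356. Over all alternatives the adjusted p ran from 0.00803 to 0.397 for sqrd-1 and from 0.0356 to 0.802 for cysl-2.

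Tissue markers moved in the same ns889 libraries. The summed level of 12 of 12 sperm markers was 343 to 357 CPM without mold and 254 to 309 CPM with mold. That of 8 of 8 oocyte and embryo markers was 3331 to 3801 CPM without and 3832 to 4697 CPM with mold, and that of 6 of 6 intestine markers 1497 to 1664 CPM without and 1790.1 to 1982 CPM with mold. That of 6 of 6 body wall muscle markers was 8559 to 8849 CPM without and 7176 to 8506 CPM with mold, lower without overlap as were the sperm markers, sqrd-1 and cysl-2. The summed levels of the epidermis, neuron and germ line markers overlapped. The epidermis sum was mostly col-19, at 2748 ± 92.8 CPM without and 2500 ± 226 CPM with mold. Relative to their mean over the 12 libraries, the epidermis markers averaged -0.26, 0.0027 and 0.28 on the log2 scale without mold. With mold they averaged 0.80, 0.46 and 0.38. Of these 6 markers 2 were higher with mold without overlap and 0 were lower, against 12.7% and 18.9% of the genes tested. None of these markers was at 0 in any library, and their part in the values of sqrd-1 and cysl-2 was not tested.

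**Figure D2:**
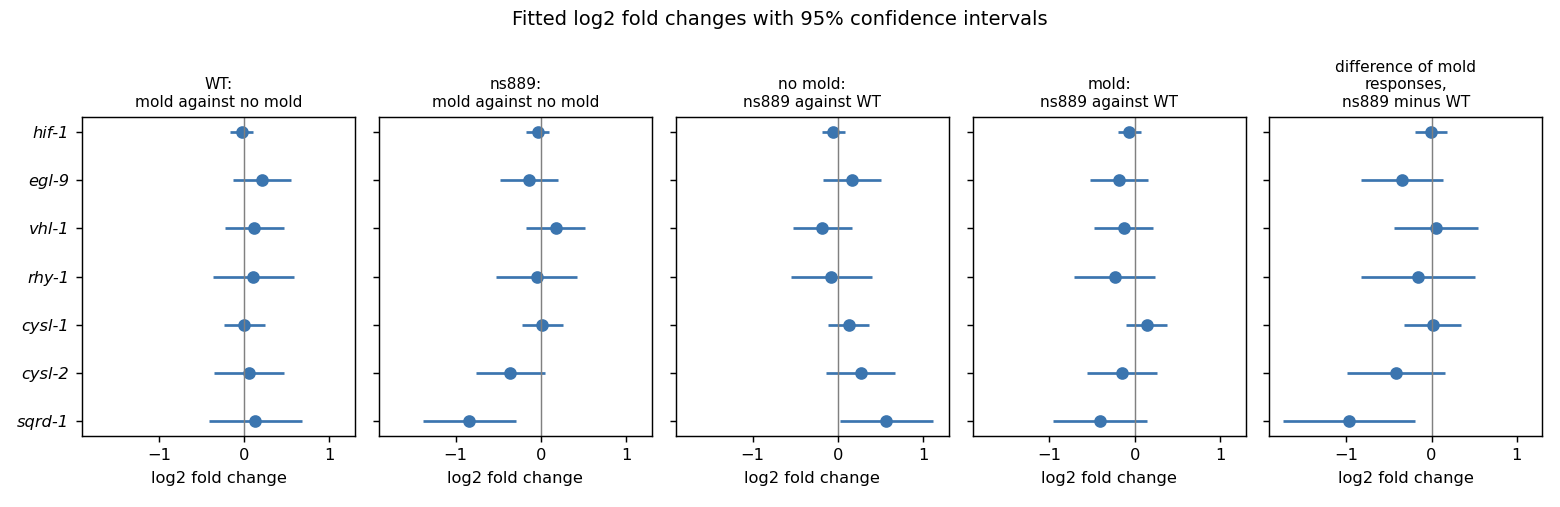
Log2 fold change of each of the 7 genes in the 4 comparisons of groups and the difference of the 2 mold responses, with 95% confidence intervals from the quasi-likelihood fit; the grey line marks no change. All intervals cover 0 except those of sqrd-1 in ns889, in ns889 against WT without mold and in the difference of the responses, at -0.84, 0.57 and -0.97.

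ns889 and WT were compared without mold to find how the strains differ in that condition. The part of the ns889 allele cannot be told apart from other differences between the strains. None of the 7 genes passed in the quasi-likelihood test, against 2.87% of the genes tested, nor with DESeq2 or limma-voom. sqrd-1 was higher in ns889 without overlap, by 0.57 ± 0.25 on the log2 scale, with a 95% confidence interval of 0.02 to 1.11 and an adjusted p of 0.398 in the quasi-likelihood test. It was 1 of 7 to be higher without overlap, against 12.3% of the genes tested, and 1 of 7 with an unadjusted p under 0.05, at 0.0431, against 11.8%. The gap between the groups was narrow, since replicate 1 of WT reached 4.94 CPM and the lowest ns889 library 4.99 CPM. Without that WT replicate the log2 fold change of sqrd-1 was 0.81, with an adjusted p of 0.104 in the quasi-likelihood test. With both replicates that stood apart left out, an alternative chosen after seeing the data, sqrd-1 passed at 0.81 with an adjusted p of 0.0146 and cysl-2 at 0.49 with 0.0199 in the same test.

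On mold, 6.73% of the genes tested differed between ns889 and WT, and 0 of the 7 genes did, in the quasi-likelihood test, DESeq2 and limma-voom alike. The median log2 fold change of the 7 was -0.15, against -0.0075 over all genes tested. Of the 7, 6 had negative values, where 8352 of the 16980 genes tested had positive values. In the WT response to mold, which uses the same WT libraries with mold, 6 of the 7 had positive values, as did 8660 of the genes tested. sqrd-1 had the largest size, at -0.41 ± 0.25 with an adjusted p of 0.323 in the quasi-likelihood test. No unadjusted p was under 0.05, against 25% of the genes tested, and hif-1 alone was lower in ns889 without overlap, where 13.5% of the genes tested were.

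The response to mold was also compared between the genotypes, as the response of ns889 minus that of WT. This contrast passed for 0.13% of the genes tested and for 0 of the 7 genes, in the quasi-likelihood test, DESeq2 and limma-voom. For sqrd-1 the difference of the responses was -0.97 ± 0.36 on the log2 scale, with a 95% confidence interval of -1.75 to -0.20, an unadjusted p of 0.0178 and an adjusted p of 0.87 in the quasi-likelihood test. An unadjusted p under 0.05 was found for 4.44% of the genes tested. cysl-2 differed by -0.42 ± 0.27 and egl-9 by -0.35 ± 0.22, both also with an adjusted p of 0.87 in the quasi-likelihood test. The comparisons share groups, so their values for one gene are not independent and the 3 ns889 libraries without mold enter 3 of the contrasts in which sqrd-1 is described.

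The 4 known HIF-1 targets among the 7, egl-9, rhy-1, cysl-2 and sqrd-1, ranked the libraries of a group in a shared order, a pattern seen after their values were known. In WT without mold replicate 1 was the highest and replicate 3 the lowest for all 4. In WT with mold and in ns889 with mold replicate 3 was the highest and replicate 1 the lowest for all 4, while in ns889 without mold their orders differed. hif-1, vhl-1 and cysl-1 did not share the order in all 3 groups, though vhl-1 did in WT without mold and hif-1 in ns889 with mold. Nor did 10 of the 11 other HIF-1 dependent genes listed share it in all 3 groups. The exception was oac-54, an acyltransferase homolog gene on chromosome II from 9158108 to 9159874, upstream of rhy-1 on the same strand. Of all genes tested, 96 genes or 0.565% had this order in the 3 groups. Both the order and the 3 groups were taken from the 4 targets themselves. Their match is therefore fixed in advance, and the share is no test of it.

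The range within a group was as large as many of the differences between groups. For sqrd-1 the WT libraries with mold ran from 2.81 to 5.66 CPM, which spans the means of all 4 groups, 3.77, 4.14, 5.59 and 3.12 CPM. Among the 4 targets rhy-1 and cysl-2 were closest to each other over the 12 libraries, with a root mean square difference of 0.18 between their centred log2 CPM, and egl-9 and sqrd-1 were farthest apart with 0.32. Among all 7 genes the closest pair was hif-1 and cysl-1 with 0.14, and the farthest was vhl-1 and sqrd-1 with 0.48. This measure also depends on how much each gene varies, so a small value does not show that genes moved together. hif-1 and cysl-1 had the lowest SD of log2 CPM of the 7, 0.064 and 0.14, and sqrd-1 the highest, 0.43. The oocyte and embryo markers, relative to their mean over the 12 libraries, stood at 0.34, -0.29 and -0.29 on the log2 scale in replicates 1 to 3 of WT without mold and at 0.10, 0.23 and 0.48 in WT with mold, the same direction as the targets. In ns889 with mold they stood at 0.18, -0.042 and -0.12, the opposite direction. Their part in the order of the targets was not tested.

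**Figure D3:**
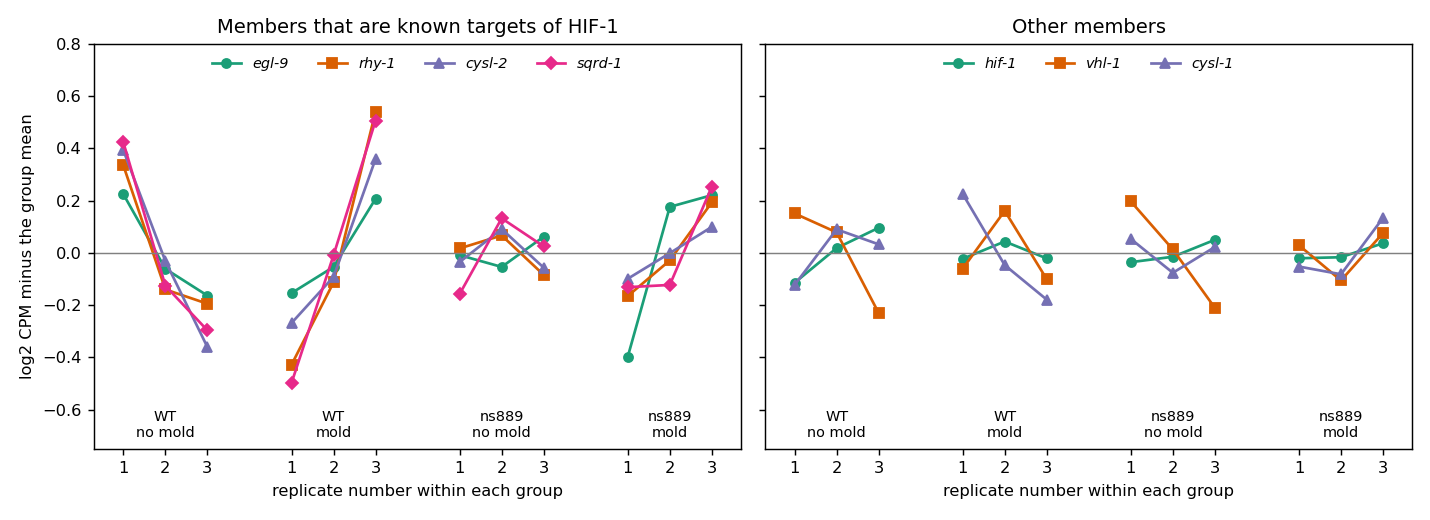
Deviation of log2 CPM from the mean of the group for the 4 HIF-1 targets and the 3 other genes, by library; lines join points of 1 gene within a group as a guide for the eye only, since replicates have no order. The 4 targets share their order in WT without mold, WT with mold and ns889 with mold, and hif-1 stays near 0 throughout.

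The wider pathway was followed through genes listed by function. Of 6 tested genes for HIF-1 partners and the VHL-1 ubiquitin ligase (aha-1, which encodes the dimerization partner of HIF-1, swan-1, cul-2, rbx-1, elb-1 and elc-1), none passed in any of the 5 contrasts in the quasi-likelihood test, against 6.27% and 3.14% of the genes tested in the mold responses of WT and ns889, 2.87% and 6.73% between the genotypes without and with mold, and 0.13% in the difference. Without replicate 1 of WT without mold, swan-1 passed in the WT response, at 0.39 with an adjusted p of 0.0254. The most abundant, the cullin gene cul-2, had 201 ± 22.1 CPM in WT without mold, 215 ± 7.10 in WT with mold, 191 ± 9.20 in ns889 without mold and 191 ± 15.8 CPM in ns889 with mold. None of the 3 iron genes under HIF-1 passed either, against the same shares. The ferritin gene ftn-2 was at 187 ± 60.0, 193 ± 40.1, 198 ± 41.6 and 183 ± 32.5 CPM in the same order of groups.

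Of 11 other genes known to depend on HIF-1, phy-2 was the one that passed, and it did so in both comparisons of genotype and in neither mold response. phy-2 (WBGene00004025, chromosome IV, 12211098 to 12215987, minus strand) encodes an alpha subunit of collagen prolyl 4-hydroxylase, an enzyme of collagen maturation. Its level was 16.1, 17.6 and 14.8 CPM in WT and 30.4, 28.3 and 27.3 CPM in ns889 without mold. With mold it was 14.7, 15.3 and 16.3 CPM in WT and 25.6, 25.0 and 24.2 CPM in ns889. All 6 ns889 libraries lay above all 6 WT libraries. The summed level of 6 of 6 germ line markers also separated the genotypes, at 2312 to 2445 CPM in ns889 and 2572 to 2653 CPM in WT without mold. With mold it was 2315 to 2360 CPM in ns889 and 2636 to 2879 CPM in WT, ns889 again being the lower. Of these 6, 3 were lower without overlap in each comparison, where 1013 and 2285 of 16980 genes tested were. The 6 epidermis markers had a median log2 fold change of -0.04 without mold, with 0 separated. On mold their median was 0.89, with 2 higher and 1 lower without overlap. None of these markers was at 0 in any library, and their part in the value of phy-2 was not tested. It was higher in ns889 by 0.82 ± 0.091 on the log2 scale without mold and by 0.69 ± 0.091 with mold, with adjusted p of 0.000291 and 0.000698 in the quasi-likelihood test, against 2.42% and 5.12% of the genes tested that were called higher. The log2 fold change of phy-2 with mold was -0.07 in WT and -0.20 in ns889, with adjusted p of 0.661 and 0.361 in that test. The share was 1 in 11 in each genotype comparison, beside 2.87% without mold and 6.73% with mold of the genes tested. The list was chosen with earlier results of these data known, so setting these shares side by side is no test of enrichment.

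The 10 remaining genes of this group did not pass in any contrast of the quasi-likelihood test, and a few passed under other settings. Without replicate 1 of WT without mold, efk-1, an elongation factor kinase gene, passed at 0.42 in the WT response (adjusted p of 0.00334) and at 0.45 in ns889 against WT without mold (0.00678). DESeq2 called F22B5.4 in the latter comparison, at 0.35 with an adjusted p of 0.0076. In the fit of the ns889 libraries alone cdo-1, the cysteine dioxygenase gene, passed at -0.38 and oac-54 at -0.81, with adjusted p of 0.0413 and 0.0447. With both libraries that stood apart left out, efk-1 passed at 0.34 in the WT response (0.00244), at 0.45 without mold (0.000481) and at -0.43 in the difference (0.041), and cdo-1 at -0.33 on mold (0.049). nhr-57, a nuclear receptor gene widely used to report HIF-1 activity, was at 5.02 ± 0.156 CPM in WT and 5.16 ± 0.889 CPM in ns889 without mold, and at 5.35 ± 0.906 CPM in WT and 3.94 ± 0.983 CPM in ns889 with mold. In ns889 5 of the 11 genes were lower with mold without overlap and none was higher, where 18.9% of the genes tested were lower. One of them, oac-54, had 1.56, 1.92 and 1.59 CPM without and 0.682, 1.04 and 1.14 CPM with mold, a log2 fold change of -0.82 ± 0.30 with an adjusted p of 0.212 in the quasi-likelihood test. fmo-2, a flavin monooxygenase gene, was near the floor with 0.0103 to 0.422 CPM over the libraries.

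Of 17 genes of sulfide and cysteine metabolism found in the table, 15 were tested. In WT 1 of the 15 was lower with mold and none was higher, and in ns889 1 was lower and 1 higher. semo-1, which encodes a methanethiol oxidase and so a source of hydrogen sulfide, had 125, 177 and 181 CPM without and 86.4, 79.5 and 97.2 CPM with mold in WT. In ns889 it had 127, 138 and 146 CPM without and 67.7, 80.7 and 103 CPM with mold. The groups did not overlap in either genotype. The log2 fold change was -0.87 ± 0.16 in WT and -0.71 ± 0.16 in ns889, with adjusted p of 0.0138 and 0.0325 in the quasi-likelihood test, against 4.60% and 1.28% of the genes tested that were called lower. Both calls were lost when single libraries were left out, with folds that stayed negative. Without replicate 2 or 3 of WT without mold or replicate 2 of WT with mold the log2 fold change of semo-1 was -0.78 to -0.81 with an adjusted p of 0.061 to 0.067 in the same test. Without any 1 of 5 ns889 libraries, the exception being replicate 3 with mold, it was -0.58 to -0.76 with 0.0696 to 0.144. In a fit of the WT libraries alone the WT value was 0.067.

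gcs-1, which encodes the glutamate-cysteine ligase subunit that starts glutathione synthesis, rose with mold in ns889. Its level went from 133, 130 and 123 CPM to 195, 164 and 152 CPM, a log2 fold change of 0.40 ± 0.082 with an adjusted p of 0.0185 in the quasi-likelihood test, against 1.86% of the genes tested that were called higher. The call was lost without any 1 replicate of ns889 without mold or without replicate 1 with mold, where the adjusted p was 0.0531 to 0.0822. In WT gcs-1 had 126, 133 and 128 CPM without and 136, 139 and 146 CPM with mold, also higher without overlap. The WT log2 fold change was 0.12 ± 0.082 with an adjusted p of 0.363 in the quasi-likelihood test. The difference of the responses was 0.28 ± 0.12, with an adjusted p of 0.87 in that test, so the rise was not shown to be particular to ns889. Of the same 15 genes 9 were lower with mold in ns889 without overlap and 2 were higher, against 18.9% and 12.7% of the genes tested. Counts over the 15 moved with the setting. In the WT response 1 was called higher and 6 lower without replicate 1 of WT without mold, 0 higher and 3 lower without replicate 1 of WT with mold, and 0 higher and 5 lower with DESeq2. The sperm markers in replicates 1 to 3 of WT summed to 258, 385 and 408 CPM without mold. With mold they summed to 253, 239 and 177 CPM, and their part in these counts was not tested. In the ns889 response 1 was called higher and 3 lower with DESeq2, and 1 higher and 5 lower in the fit of the ns889 libraries alone. cysl-3, a paralog of cysl-1 and cysl-2, was among these 5, at -0.36 with an adjusted p of 0.0174. The gene shares 594 of its 1081 exon bases with rips-1 on the other strand, a gene with 66997 counts over all libraries. Since the strand setting of the counting is not given, reads of rips-1 may enter or alter its counts. In the quasi-likelihood test none of the 15 passed between the genotypes or in the difference of the responses. On mold, DESeq2 called gcs-1 higher in ns889 at 0.28 (adjusted p of 0.0435) and mpst-3, a mercaptopyruvate sulfurtransferase gene, lower at -0.28 (0.000771), and it called mpst-3 lower without mold at -0.23 (0.0171). The quasi-likelihood test on mold called gcs-1 at 0.36 without replicate 3 of ns889 with mold (0.0334). Without replicate 1 of WT with mold it called mpst-3 at -0.31 (0.043) and cbs-2, a cystathionine beta-synthase gene, at 1.03 (0.0242).

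**Figure D4:**
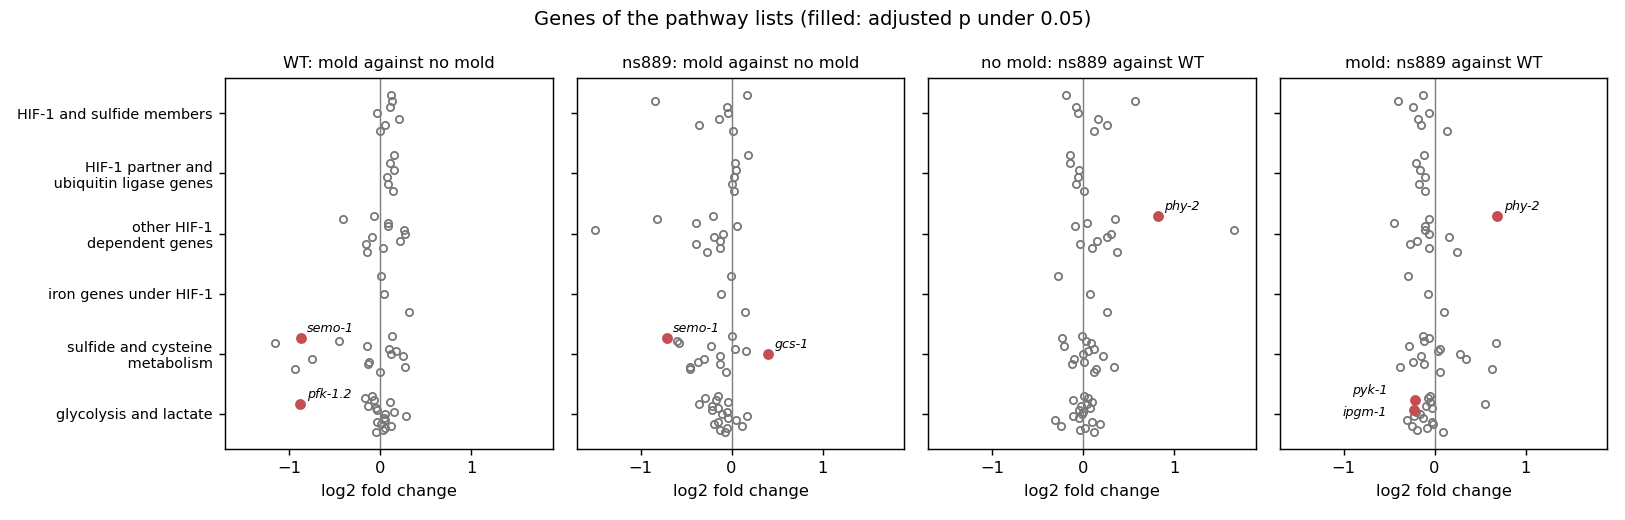
Log2 fold change of each tested gene by list in the 4 comparisons of groups, with points spread vertically within a list only to separate them; filled points passed an adjusted p of 0.05 in the quasi-likelihood test and are named. phy-2 stands at 0.82 and 0.69 in ns889 against WT, semo-1 at -0.87 and -0.71 with mold in WT and ns889, and gcs-1 at 0.40 with mold in ns889, while no point of the 7 genes is filled.

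Glycolysis, which HIF-1 drives in mammals, was followed through 19 tested genes. With mold in WT 1 was called lower, against 4.60% of the genes tested, and this was pfk-1.2, a phosphofructokinase gene, from 12.4, 20.0 and 20.3 CPM to 10.7, 10.9 and 7.08 CPM. Its log2 fold change was -0.88 ± 0.20 with an adjusted p of 0.0337 in the quasi-likelihood test. The sperm markers moved in the same libraries, from a summed 258 to 408 CPM without to 177 to 253 CPM with mold, 5 of 12 called lower, and their part in this value was not tested. The call was lost with limma-voom (0.0611), with the replicate number as a block (0.0626), in a fit of the WT libraries alone (0.224), and without replicate 2 or 3 of either WT group (adjusted p of 0.072 to 0.145). Without replicate 1 of WT without mold, hxk-1, a hexokinase gene, passed at 0.45 and pyk-2 at -0.23, with adjusted p of 0.00368 and 0.0254.

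In the quasi-likelihood test no glycolysis gene passed in ns889 with mold, against 3.14% of the genes tested, and 7 of 19 were lower without overlap, against 18.9%. DESeq2 called 2 lower, pyk-2 at -0.28 and ipgm-1 at -0.20, with adjusted p of 0.0134 and 0.0459. pyk-2 also passed in the fit of the ns889 libraries alone (0.0194) and with the first run only (0.0388), and ipgm-1 without replicate 3 of ns889 with mold (0.0433). Without mold none differed between the genotypes. With mold 2 of 19 were called lower in ns889 than in WT, against 1.61% of the genes tested. These were ipgm-1, a phosphoglycerate mutase gene, at -0.23 ± 0.060, and pyk-1, a pyruvate kinase gene, at -0.22 ± 0.060 on the log2 scale, with adjusted p of 0.0423 and 0.0494 in the quasi-likelihood test. Over the alternatives those values ran from 0.00636 to 0.227 for ipgm-1 and from 0.0238 to 0.285 for pyk-1. Both calls were lost without replicate 2 or 3 of WT with mold or without replicate 1 or 2 of ns889 with mold, and that of pyk-1 also without replicate 3 of ns889 with mold, at adjusted p of 0.085 to 0.227 for ipgm-1 and 0.0694 to 0.285 for pyk-1. Both were also lost with no filter (0.0834 and 0.101) and in a fit of only these 6 libraries (0.0994 and 0.117), and pyk-1 with DESeq2's size factors (0.0557) and with the first run only (0.0577). pfk-1.2 went the other way on mold, higher in ns889 at 0.56 ± 0.20 with an adjusted p of 0.118 in the quasi-likelihood test. Of the 19, 1 was higher without overlap, pfk-1.2, and 5 were lower, where 3045 and 2285 of 16980 genes tested were. DESeq2 called pfk-1.2 (0.0413), as did the quasi-likelihood test with both libraries that stood apart left out (0.0359). With the replicate block hxk-3 passed at -0.20 (0.0412). In the same libraries the germ line markers were lower in ns889, at the summed levels given above, and the sperm markers were higher, at 254 to 309 CPM against 177 to 253 CPM in WT. Their part in these values was not tested.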

How the data were processed

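The data came from polyA libraries of whole animals, 20 in number, and runs of one replicate were summed to give 12 replicates. The values the authors deposited are whole-number read counts for each gene, not normalized. FastQC 0.11.12, STAR 2.4a, featureCounts, edgeR 3.28.1, limma 3.42.2 and the build WBcel235 are named in the submitters' processing notes. How reads matching several genes were handled is not given in the sources used here. Of 46904 gene identifiers, 44017 matched a symbol.

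Genes with low counts were removed by filterByExpr and libraries were scaled by TMM. edgeR's quasi-likelihood test (robust; edgeR 4.0.16, R 4.3.3) was run with one mean per group, fitted jointly to the 12 replicates, for 5 contrasts. Benjamini-Hochberg adjustment was over the 16980 tested genes, at a threshold of 0.05. An error beside a log2 fold change is its standard error. The code was tested on simulated counts. Alternatives were DESeq2 1.42.0, limma-voom (limma 3.58.1), DESeq2's size factors, no filter, the first run only, a replicate block, only the groups compared, and leaving out replicates.

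The 7 members and all lists were chosen with earlier results of these data known. Named besides the members were, of each other list, up to 3 genes with the smallest p among those past the threshold, or else the most abundant one. nhr-57, oac-54, fmo-2 and the genes that passed only under an alternative were named after their values were seen. Genes of like pattern were to be named for a member past the threshold, and no member passed.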

Additional observations from a re-analysis of the deposited data

How the results depend on the processing

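Of the 7 members, DESeq2 called 1 and a fit of only the groups compared called 2 in the mold response of ns889. Leaving out replicate 1 of WT without mold and replicate 3 of WT with mold together, a choice made after seeing the data, gave 2 in ns889 against WT without mold. Leaving out 1 replicate at a time gave 0 to 0 in every contrast, and the replicate block gave 0. Over 35 log2 values of members and 518 alternatives there were 47 sign changes, the largest value among those that changed sign being 0.234 in size. The genes called over the whole table moved more. For the WT response the 1064 became 2287 with DESeq2, 346 with limma-voom, 312 with the replicate block, 83 with only the groups compared and 3860 without both libraries, and 159 to 4810 leaving out 1 replicate. For the ns889 response the 534 became 983 with DESeq2 and 1634 with only the groups compared (209 to 418 leaving out 1). For ns889 against WT without mold the 488 became 809 with DESeq2, 325 with only the groups compared and 1317 without both libraries (319 to 669 leaving out 1). For ns889 against WT with mold the 1143 became 1976 with DESeq2 and 1873 without both libraries (545 to 1868 leaving out 1). For the difference of the responses the 22 became 76 with DESeq2 and 114 without both libraries (15 to 39 leaving out 1). The cause of these changes was not tested. Whether equal replicate numbers pair the samples was not settled. Over 12 pairs the correlation of deviations ran from -0.30 to 0.26, with 4 over 0.1. For 7 of 12 libraries the best correlation was with their own number. In every group replicate 1 had 1 run, and replicates 2 and 3 had 2 runs each. The lowest count of a member in a library was 234, and how depth bears on the calls was not tested.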
